A study of Mus musculus with 8 samples.

Results

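The genes followed here act in lipid storage and lipid breakdown: the intracellular lipase Pnpla2 with its partners Abhd5 and G0s2, its relative Pnpla3, the droplet proteins Plin2, Plin5 and Cidec, and the secreted lipases Lipc, Lipg and Lpl. They were taken by gene symbol from the reads on each gene's own strand, and make up 10 of the 25229 genes counted in every library. All 10 passed the filter on low counts. Bulk RNA was sequenced from the liver cells of 8 mice of strain C57BL/6, to see what loss of Adar1, the gene of an RNA-editing enzyme, does to expression when Ifih1, the gene of the RNA sensor MDA5, is missing. The groups were 3 mice with floxed Adar1 on both chromosomes (flox/flox), 2 mice with a single floxed allele (wt/flox) and 3 mice with wild-type Adar1 (wt/wt). Every mouse, wt/wt included, was Ifih1-/- and Alb-Cre+, so the floxed alleles are cut in cells that use the albumin promoter, chiefly hepatocytes. Replicates 1, 2 and 3 of a group were 11, 9 and 7 weeks old, and wt/flox had only the 11-week and 9-week mice. In the order of the replicates, the flox/flox mice were labelled female, male and female, both wt/flox mice male, and the wt/wt mice male, male and female. Livers were perfused with collagenase and the cells were spun at low speed, cleared of red cells and passed through Percoll, which enriches hepatocytes but leaves some other cells.

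Hepatocytes keep surplus fatty acids as triacylglycerol in lipid droplets, whose surface is coated with perilipins. PNPLA2, also called ATGL, makes the first cut in triacylglycerol at that surface, ABHD5 activates it and G0S2 inhibits it. Outside the cell, lipoprotein lipase, hepatic lipase and endothelial lipase act on the triacylglycerol and phospholipid of circulating lipoproteins.

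Sense gene reads numbered 75875711 to 132303735 per library, a span of 1.74-fold. Adar reads were not lower in flox/flox mice: they stood at 49.4, 35.9 and 42.1 CPM (reads scaled to library size) in flox/flox mice, 22.0 and 31.8 CPM in wt/flox mice, and 28.1, 30.0 and 53.6 CPM in wt/wt mice. The flox/flox libraries lay above both wt/flox libraries and within the wt/wt range (log2 fold change 0.66, SE 0.31, adjusted p = 0.558 against wt/flox, and 0.19, SE 0.27, adjusted p = 0.626 against wt/wt). These counts cover the whole gene, exons outside the floxed part included, so they check the labels little, while Ifih1 had 0 to 4 reads in any library. In 2 flox/flox libraries the transcripts contradicted the labelled sex: replicate 1, labelled female, held Y-linked reads, and replicate 2, labelled male, held Xist reads. The summed CPM of 11 hepatocyte markers ran from 170820 to 251700 in flox/flox, from 161010 to 180450 in wt/flox and from 107760 to 125940 in wt/wt. Alb, the largest part, gave 98247 to 171680 CPM in flox/flox and 63587 to 79947 CPM in wt/wt. Apob was also higher in flox/flox, while Apoa2 was lower, at 1993 to 2227 CPM against 2810 to 3419 CPM in wt/wt. Of the 11 markers tested in flox/flox against wt/wt, 4 rose and 1 fell, where 15.1% and 14.7% of all genes did. The 16 adipocyte markers summed to 2277 to 4439 CPM in flox/flox, 2633 to 4308 CPM in wt/flox and 2218 to 4114 CPM in wt/wt, of which Pck1, a gene of glucose synthesis that hepatocytes also use, gave 1829 to 4031 CPM. Of the 9 tested in flox/flox against wt/wt, Nnat rose and Fabp4 fell, and the median log2 fold change was 1.06. Among the others, Lep had 0 reads in all libraries (a count of 0 allows up to 3 reads), Retn was at 0 in all but wt/wt replicate 3, and Adipoq did not exceed 0.0303 CPM. The part of these markers in the values of the 10 genes was not tested. The names of the deposited tables carry a second-batch mark for every flox/flox and wt/flox library and none for wt/wt, so genotype and that mark cannot be told apart in any comparison with wt/wt. Alignments to several places made up 3.92% to 4.32% in flox/flox and 4.89% to 4.98% in wt/flox, against 8.97% to 10.9% in wt/wt.

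The promoters of G0s2, Pnpla2 and Pnpla3 are shown because G0s2 fell in wt/flox mice, Pnpla2 is the lipase that the G0S2 protein inhibits, and Pnpla3 varied most between libraries. Each run holds the 250 bases before the RefSeq start on GRCm38.p6, on the gene's strand, 5′ to 3′, at chr1:193273189-193273438 (minus strand), chr7:141454938-141455187 (plus strand) and chr15:84167566-84167815 (plus strand). Capitals mark GC boxes (GGGCGG or its reverse complement CCGCCC) in all 3, and in Pnpla3 also a CCAAT box (read as ATTGG) and the cAMP response element TGACGTCA.
G0s2: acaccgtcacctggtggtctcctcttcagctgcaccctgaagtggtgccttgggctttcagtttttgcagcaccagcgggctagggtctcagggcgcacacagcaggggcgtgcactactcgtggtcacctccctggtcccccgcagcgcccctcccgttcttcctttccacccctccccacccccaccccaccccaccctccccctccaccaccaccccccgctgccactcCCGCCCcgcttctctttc
Pnpla2: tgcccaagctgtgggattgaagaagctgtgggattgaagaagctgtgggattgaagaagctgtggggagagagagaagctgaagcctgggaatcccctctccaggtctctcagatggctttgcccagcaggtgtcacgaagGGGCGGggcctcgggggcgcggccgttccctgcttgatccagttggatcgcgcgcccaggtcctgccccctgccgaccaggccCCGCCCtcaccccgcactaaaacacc
Pnpla3: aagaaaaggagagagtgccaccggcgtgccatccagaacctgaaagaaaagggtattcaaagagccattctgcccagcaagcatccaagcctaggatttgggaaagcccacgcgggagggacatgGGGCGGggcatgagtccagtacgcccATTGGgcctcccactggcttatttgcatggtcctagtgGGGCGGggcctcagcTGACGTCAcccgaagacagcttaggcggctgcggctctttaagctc
The G0s2 window held its GC box at bases 18 to 13 before the start, and Pnpla2 held them at bases 109 to 104 and 26 to 21. In Pnpla3 the cAMP response element lay at bases 46 to 39 before the start. Of the 32851 promoters in the RefSeq table, 32.7% held a GC box, 33.8% a CCAAT box and 1.55% the cAMP response element in the same 250 bases, on either strand. These matches describe letters, not bound sites. The table held promoters for 8 of the 10 genes, and those of Lipg and Lpl were not among them.

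Levels between genes were compared per kilobase of exon. Plin2 led with a mean of 75.6 ± 20.1 CPM per kb over the 8 libraries (SD), followed by Lipc at 62.8 ± 13.6. G0s2 at 27.0 ± 18.5 and Plin5 at 22.2 ± 16.6 CPM per kb came next, then Pnpla2 at 11.2 ± 3.09, Lipg at 7.08 ± 5.64, Pnpla3 at 6.71 ± 6.87 and Abhd5 at 4.60 ± 1.47. Lpl, at 1.79 ± 1.80 CPM per kb, and Cidec, at 0.280 ± 0.221, were the lowest. The intervals of 1 SD overlapped between all neighbours in this order except Lipc and G0s2.

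**Figure D1:**
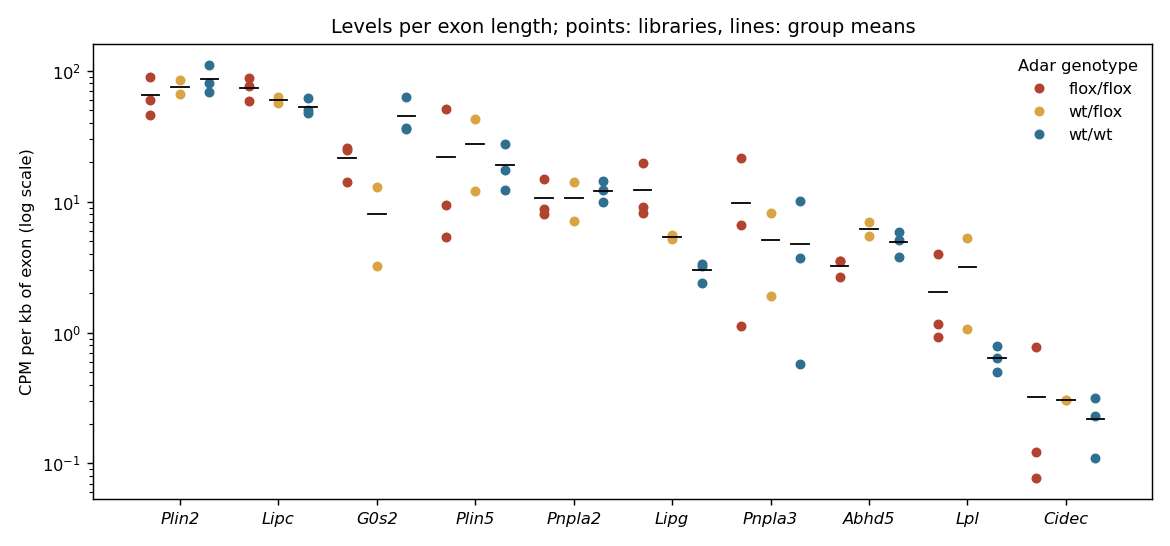
Levels of the 10 genes per kilobase of exon (CPM per kb, log axis), with a point for each library and groups side by side. Plin2 and Lipc, with means of 75.6 and 62.8 CPM per kb over all libraries, lie above the other genes, and Cidec, at 0.280, lies lowest.

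Among the 10 genes, Lipg rose in flox/flox mice against wt/wt mice and G0s2 fell in wt/flox mice against wt/wt mice. In bulk samples such as these, fewer cells of a type and less RNA per cell cannot be told apart. No other gene of the set passed edgeR's quasi-likelihood test at an adjusted p of 0.05 in any of the 3 comparisons. In flox/flox against wt/wt, 1 of 10 was called where 29.9% of all 14728 genes tested were (15.1% higher and 14.7% lower). DESeq2 called 3 of 10 where it called 35.6% of all genes. With a trend with exon length removed, 3 of 10 were called where 22.7% of all genes were. The side of the background on which the set's share lay thus depended on the fit. Whether the share of so few genes differed from the background was not tested. For wt/flox against wt/wt, 1 of 10 was called where 12.5% of all genes were, a share near the background. The split of those calls was 969 higher and 868 lower, and 835 higher and 1305 lower with upper-quartile size factors. Flox/flox against wt/flox, the groups that share the batch mark, had 0 of 10 called where 0% of all genes were. There, 3 of the 10 (Abhd5, G0s2 and Lipg) had an unadjusted p under 0.05, as did 1240 of all 14728 genes. DESeq2 called 1 (Abhd5, adjusted p = 0.0336), where it called 0.51% of all genes, and limma-voom called 0. Each group serves in 2 of the 3 comparisons, so their results are not independent. The median log2 fold change of the 10 genes was 0.34 in flox/flox against wt/wt, 0.03 in flox/flox against wt/flox and 0.26 in wt/flox against wt/wt, beside 0.02, 0.04 and -0.06 over all genes tested.

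**Figure D2:**
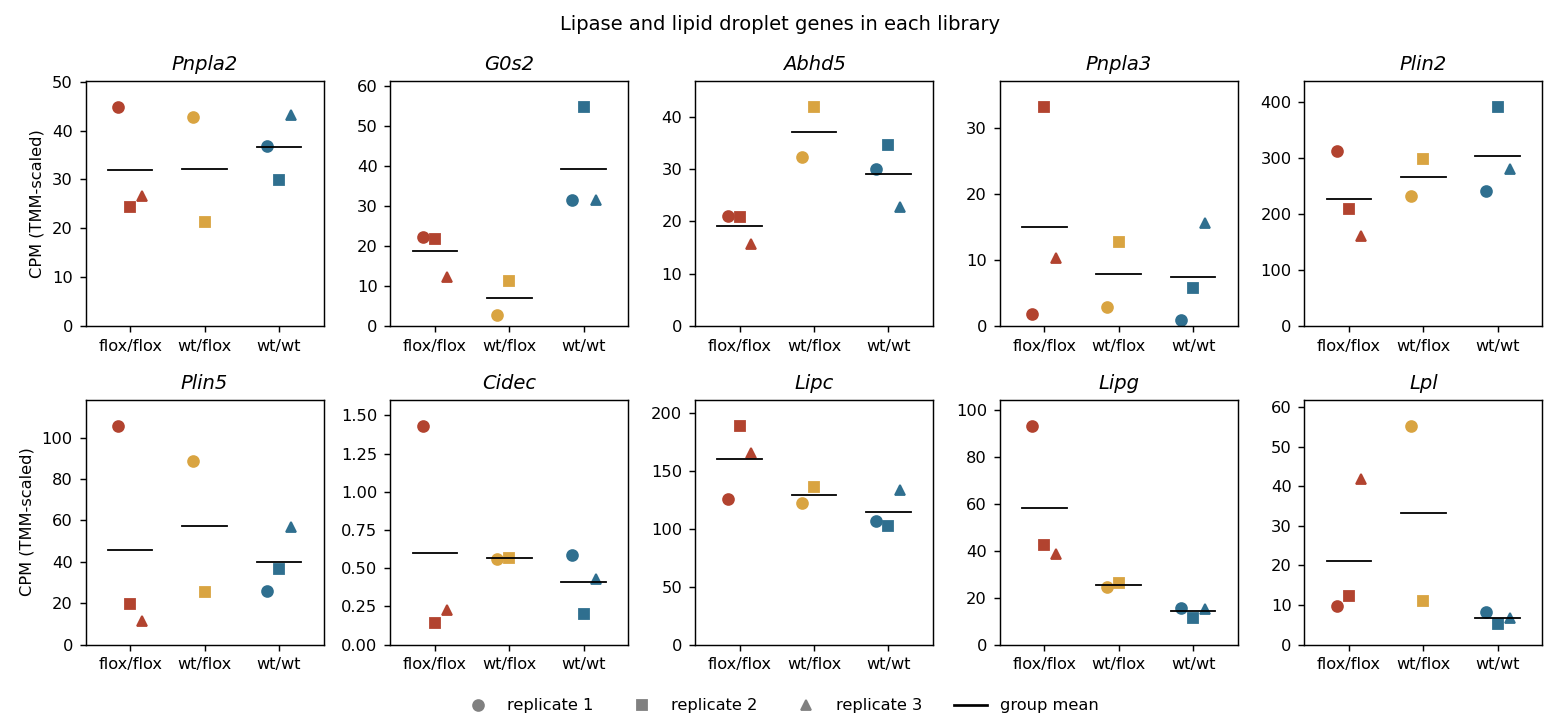
CPM of each of the 10 genes in every library (linear axes from 0), flox/flox left, wt/flox in the middle and wt/wt right. Lipg lay between 38.5 and 93.2 CPM in flox/flox libraries and between 11.3 and 15.7 CPM in wt/wt libraries, and G0s2 was lowest in the wt/flox libraries, at 2.83 and 11.2 CPM.

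**Figure D3:**
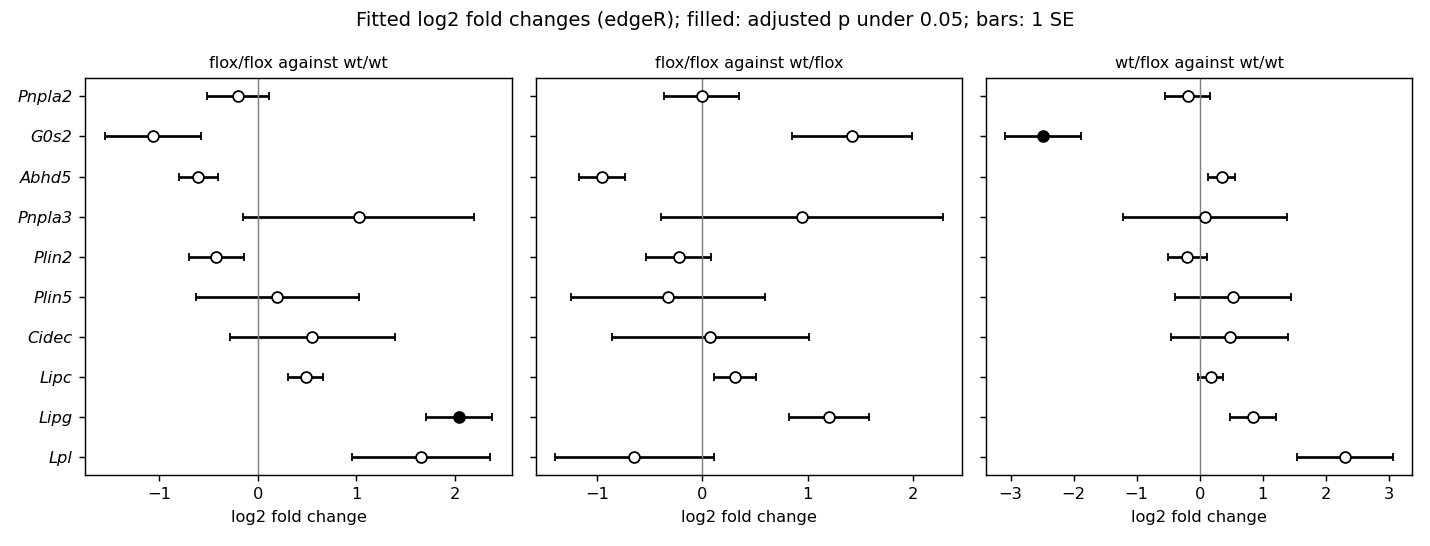
Fitted log2 fold changes of the 10 genes in the 3 comparisons, with bars of 1 standard error. Lipg at 2.04 in flox/flox against wt/wt and G0s2 at -2.48 in wt/flox against wt/wt are the values past an adjusted p of 0.05.

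Pnpla2, on chromosome 7 (141455198 to 141460743, GRCm38), encodes the lipase that starts triacylglycerol breakdown at the droplet. Its level was 44.8, 24.4 and 26.7 CPM in flox/flox mice, 42.8 and 21.4 CPM in wt/flox mice, and 36.8, 29.9 and 43.2 CPM in wt/wt mice. The groups overlapped throughout. The log2 fold change was -0.20 (SE 0.32, adjusted p = 0.659) for flox/flox against wt/wt, -0.01 (SE 0.35, adjusted p = 0.993) for flox/flox against wt/flox and -0.19 (SE 0.35, adjusted p = 0.737) for wt/flox against wt/wt.

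Abhd5, on chromosome 9 (122351608 to 122381524), encodes the activator of PNPLA2. Its level was 21.0, 20.9 and 15.7 CPM in flox/flox mice, 32.4 and 41.8 CPM in wt/flox mice, and 30.1, 34.7 and 22.7 CPM in wt/wt mice. All flox/flox libraries lay below all others, with wt/wt replicate 3 the nearest. Against wt/wt the log2 fold change was -0.60 (SE 0.20) with an adjusted p = 0.0513, just short of the threshold, and 7 of 21 alternatives called it, among them wt/wt replicate 3 left out (adjusted p = 0.0239). Against wt/flox it was -0.95 (SE 0.22, adjusted p = 0.558, unadjusted p = 0.00231). The value was 0.35 (SE 0.22, adjusted p = 0.298) for wt/flox against wt/wt, and those groups overlapped.

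G0s2, on chromosome 1 (193272161 to 193273217, minus strand), encodes the inhibitor of PNPLA2. It stood at 22.3, 21.7 and 12.2 CPM in flox/flox mice, 2.83 and 11.2 CPM in wt/flox mice, and 31.5, 54.8 and 31.4 CPM in wt/wt mice. The 3 groups did not overlap: wt/flox lay lowest, flox/flox in between and wt/wt highest, though flox/flox replicate 3 and wt/flox replicate 2 were close. Against wt/wt, G0s2 in wt/flox fell by 2.48 on the log2 scale (SE 0.60, adjusted p = 0.0363), 5.59-fold lower. The wt/flox libraries set its size: the log2 fold change was -1.80 without wt/flox replicate 1 and -3.79 without wt/flox replicate 2. The direction held in all 21 alternatives, but 8 of them lost the call, among them the removal of a trend with exon length (adjusted p = 0.0872), the 2 flox/flox libraries of contradicted sex left out (adjusted p = 0.0530), and either wt/flox library left out (adjusted p = 0.117 without replicate 1 and 0.0911 without replicate 2). The adjusted p was 0.0720, 0.0980 and 0.0551 without wt/wt replicates 1, 2 and 3, and 0.0556 without flox/flox replicate 2. In flox/flox against wt/wt the log2 fold change was -1.07 (SE 0.49, adjusted p = 0.135; 0.0498 without wt/flox replicate 2). It was -1.68 there without the 2 flox/flox libraries of contradicted sex. In flox/flox against wt/flox it was 1.42 (SE 0.57, adjusted p = 0.558, unadjusted p = 0.0382), with 0.77 when both libraries of contradicted sex were left out, and 0.73 and 2.72 without wt/flox replicates 1 and 2. G0s2 lies within the span of Lamb3 on the other strand, and 12.2% to 17.3% of the reads at G0s2 were on that strand.

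Per kilobase, Pnpla2 stood to its inhibitor G0s2 as 0.579, 0.323 and 0.630 in flox/flox mice, 4.36 and 0.549 in wt/flox mice, and 0.337, 0.158 and 0.396 in wt/wt mice. Only in wt/flox replicate 1 did the lipase transcript exceed that of its inhibitor. The ratio of the activator Abhd5 to G0s2 was 0.138, 0.140 and 0.188 in flox/flox mice, 1.67 and 0.545 in wt/flox mice, and 0.140, 0.0925 and 0.105 in wt/wt mice. Here both wt/flox libraries lay above all others, and the flox/flox and wt/wt ranges overlapped narrowly.

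Pnpla3, on chromosome 15 (84167837 to 84187236), encodes a droplet protein related to PNPLA2 whose transcript is induced by feeding in mouse liver. Its level was 1.74, 33.1 and 10.3 CPM in flox/flox mice, 2.92 and 12.8 CPM in wt/flox mice, and 0.883, 5.75 and 15.6 CPM in wt/wt mice. Replicate 1 was lowest in every group, and the spread over all 8 libraries was 37.5-fold, the widest of the set. The log2 fold change in flox/flox against wt/wt was 1.02 (SE 1.17, adjusted p = 0.535), and it was -0.20 with sex by transcripts as a term. The value was 0.94 (SE 1.34, adjusted p = 0.787) against wt/flox and 0.08 (SE 1.30, adjusted p = 0.970) for wt/flox against wt/wt.

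Plin2, on chromosome 4 (86648386 to 86670060, minus strand), encodes the main droplet coat protein of hepatocytes. It stood at 312, 209 and 161 CPM in flox/flox mice, 232 and 298 CPM in wt/flox mice, and 241, 391 and 281 CPM in wt/wt mice. The groups overlapped, and the log2 fold change in flox/flox against wt/wt was -0.42 (SE 0.28, adjusted p = 0.283). For flox/flox against wt/flox it was -0.22 (SE 0.31, adjusted p = 0.779) and for wt/flox against wt/wt -0.20 (SE 0.31, adjusted p = 0.690).

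Plin5, on chromosome 17 (56111601 to 56117596, minus strand), encodes the perilipin of oxidative tissues, which binds both PNPLA2 and ABHD5 and ties droplets to mitochondria. Its level was 106, 19.7 and 11.1 CPM in flox/flox mice, 89.0 and 25.4 CPM in wt/flox mice, and 25.7, 36.3 and 57.1 CPM in wt/wt mice. A single mouse in each group stood high: replicate 1 of flox/flox, replicate 1 of wt/flox and replicate 3 of wt/wt. The spread within flox/flox was 9.50-fold, while the log2 fold change against wt/wt was 0.20 (SE 0.83, adjusted p = 0.873). It was -0.33 (SE 0.92, adjusted p = 0.900) for flox/flox against wt/flox and 0.53 (SE 0.92, adjusted p = 0.717) for wt/flox against wt/wt.

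The same 3 mice were the highest of their groups for Plin4, another perilipin, and for Angptl4, which encodes a secreted inhibitor of lipoprotein lipase. These genes and Angptl8 were chosen after their values were seen. Angptl4 stood at 329, 39.3 and 24.9 CPM in flox/flox mice, 195 and 59.7 CPM in wt/flox mice, and 32.4, 32.6 and 171 CPM in wt/wt mice. Plin4 had 78.7, 8.82 and 3.92 CPM in flox/flox mice, 34.6 and 8.11 CPM in wt/flox mice, and 2.54, 2.50 and 11.1 CPM in wt/wt mice. Angptl8, which is induced by feeding in mouse liver, ran the other way, at 17.6, 100.5 and 65.6 CPM in flox/flox mice, 8.77 and 24.0 CPM in wt/flox mice, and 35.3, 55.8 and 21.6 CPM in wt/wt mice. It was lowest of its group in each of the 3 mice in which Angptl4 was highest. Pnpla3, also induced by feeding, did not follow Angptl8 in all of them. It was lowest of its group in flox/flox replicate 1 (1.74 CPM) and wt/flox replicate 1 (2.92 CPM), but highest in wt/wt replicate 3 (15.6 CPM). Among 7113 genes with a mean CPM of at least 10, Tsc22d3 was nearest to Plin5 in its pattern over the 8 libraries (root mean square difference of centred log2 CPM 0.30), a gene also chosen after its values were seen. Feeding state and time of day were not analysed here.

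**Figure D4:**
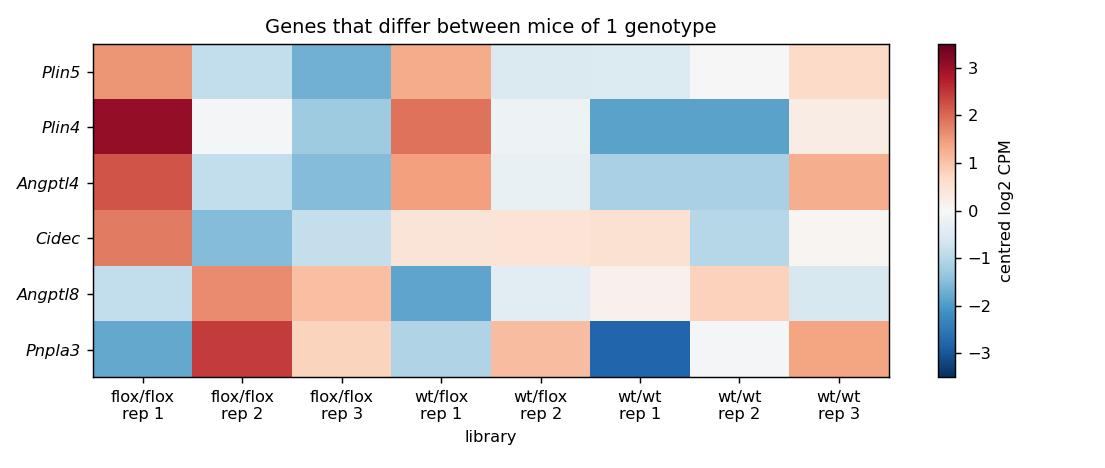
Colour map of log2 CPM, centred on each gene's mean over the 8 libraries, for genes that differed between mice of a genotype, with the flox/flox libraries left, wt/flox in the middle and wt/wt right. Plin5, Plin4 and Angptl4 are the highest of their groups in flox/flox replicate 1, wt/flox replicate 1 and wt/wt replicate 3, though Plin4 in wt/wt replicate 3 lies near its mean. Angptl8 is the lowest of its group in each of these libraries (17.6, 8.77 and 21.6 CPM). Pnpla3 is the lowest of its group in flox/flox replicate 1 and wt/flox replicate 1, but the highest in wt/wt replicate 3.

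Cidec, on chromosome 6 (113424634 to 113435760, minus strand), encodes a protein that fuses droplets in adipocytes and in fatty liver. It had 129, 16 and 30 reads in flox/flox mice, 48 and 40 reads in wt/flox mice, and 58, 24 and 47 reads in wt/wt mice. Between 69.1% and 93.2% of the reads at the gene were on the opposite strand. The groups overlapped, and the log2 fold change in flox/flox against wt/wt was 0.55 (SE 0.84, adjusted p = 0.642). It was -1.12 (adjusted p = 0.153) without flox/flox replicate 1, the library with the most reads.

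Lipg, on chromosome 18, encodes endothelial lipase, a phospholipase that acts mainly on HDL. Its level was 93.2, 42.5 and 38.5 CPM in flox/flox mice, 24.4 and 26.2 CPM in wt/flox mice, and 15.7, 11.3 and 15.3 CPM in wt/wt mice. The 3 groups did not overlap, with flox/flox highest and wt/wt lowest. Lipg rose 4.12-fold in flox/flox against wt/wt (2.04 on the log2 scale, SE 0.34, adjusted p = 0.0049), higher in 3 of 3 flox/flox libraries than in any wt/wt library. The call held in all 21 alternatives, with log2 fold changes of 1.45 to 2.27. The lowest came without the 2 flox/flox libraries of contradicted sex (log2 fold change 1.45, adjusted p = 0.0182), where a lone flox/flox library is assumed to vary like the other groups. It was 1.52 (adjusted p = 0.00312) without flox/flox replicate 1, the highest library. Against wt/flox, where the batch mark is shared, the log2 fold change was 1.20 (SE 0.38, adjusted p = 0.558, unadjusted p = 0.0136), with 0.58 when both libraries of contradicted sex were left out and 0.67 when flox/flox replicate 1 alone was. The value was 0.84 (SE 0.36, adjusted p = 0.154) for wt/flox against wt/wt, called in 3 of 21 alternatives.

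Sinusoidal endothelial cells are a known source of Lipg. The summed CPM of 18 endothelial markers was 131, 198 and 275 in flox/flox mice, 167 and 159 in wt/flox mice, and 338, 305 and 472 in wt/wt mice. Of the 18, 10 fell in flox/flox against wt/wt, where 14.7% of all genes fell. The hepatocyte marker sum, of which Alb was the largest part, was higher in flox/flox than in wt/wt, as given above. The part of either marker sum in the Lipg result was not tested. By the same measure of likeness, the genes nearest to Lipg were Eppk1, which encodes the cytolinker epiplakin (0.36), and Cyp2a5, a cytochrome P450 (0.38). Eppk1 had 400.3, 165 and 229 CPM in flox/flox mice, 212 and 171 CPM in wt/flox mice, and 95.6, 69.0 and 115 CPM in wt/wt mice. Cyp2a5 has a near-identical copy, Cyp2a4, so its count is uncertain.

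Lipc, on chromosome 9 (70798128 to 70952226, minus strand), encodes hepatic lipase, which hepatocytes secrete. It stood at 126, 189 and 166 CPM in flox/flox mice, 122 and 136 CPM in wt/flox mice, and 107, 102 and 133 CPM in wt/wt mice. Flox/flox replicate 1 lay within the wt/wt range and the other flox/flox libraries above it. The log2 fold change in flox/flox against wt/wt was 0.49 (SE 0.18, adjusted p = 0.0723), called in 3 of 21 alternatives (adjusted p = 0.0215 without flox/flox replicate 1), and it was 0.31 (SE 0.20, adjusted p = 0.594) against wt/flox and 0.18 (SE 0.20, adjusted p = 0.564) for wt/flox against wt/wt. Per kilobase, Lipc exceeded Lipg by 2.96, 9.73 and 9.43 times in flox/flox mice, 11.0 and 11.4 times in wt/flox mice, and 15.0, 19.8 and 19.1 times in wt/wt mice.

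Lpl, on chromosome 8 (68880491 to 68907448), encodes lipoprotein lipase, which adult mouse hepatocytes express little. Its level was 9.66, 12.1 and 41.9 CPM in flox/flox mice, 55.3 and 11.1 CPM in wt/flox mice, and 8.26, 5.23 and 6.68 CPM in wt/wt mice. Every flox/flox and wt/flox library lay above every wt/wt library, but flox/flox replicate 3 and wt/flox replicate 1 stood far above their groups. The log2 fold change was 1.66 (SE 0.70, adjusted p = 0.110) for flox/flox against wt/wt and 0.70 without flox/flox replicate 3. The wt/flox against wt/wt value was 2.30 (SE 0.76, adjusted p = 0.0840) and 0.73 without wt/flox replicate 1. Lpl was called there in 2 of 21 alternatives, by DESeq2 and with flox/flox replicate 3 left out (adjusted p = 0.0459). For flox/flox against wt/flox the log2 fold change was -0.64 (SE 0.75, adjusted p = 0.738). The 14 Kupffer cell markers, which mark resident macrophages, another source of Lpl, summed to 57.7, 37.7 and 131 CPM in flox/flox mice, 38.7 and 40.0 CPM in wt/flox mice, and 70.6, 67.1 and 288 CPM in wt/wt mice. Their part in the Lpl values was not tested.

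Counted as groups that do not overlap, Lipg and Lpl lay above and G0s2 and Abhd5 below in flox/flox against wt/wt, where 45.0% of all genes did not overlap (23.0% above and 22.0% below). Against wt/flox, the flox/flox libraries lay above for Lipg and G0s2 and below for Abhd5, where 27.3% of all genes did not overlap (14.2% above and 13.1% below). The wt/flox libraries lay above wt/wt for Lipg and Lpl and below for G0s2, where 55.1% did not overlap (25.8% above and 29.3% below). The counts of 4, 3 and 3 of the 10 genes were near or below these backgrounds.

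Gene lists of 5 related groups were read beside the set, with values for flox/flox against wt/wt unless said otherwise. Among other droplet proteins, 3 of 21 tested rose and 4 fell, against 15.1% and 14.7% of all genes, and the median log2 fold change was 0.04. Those that rose were Vps13c, a lipid carrier at droplet contacts (log2 fold change 0.93, SE 0.16, adjusted p = 0.00524), the hepatocyte droplet enzyme Hsd17b13 (0.69) and Faf2, which acts in protein turnover at droplets (0.41). The GTPases Rab7 (-0.69) and Rab18 (-0.61), the perilipin Plin3 (-0.59) and Pcyt1a (-0.30), whose product makes phosphatidylcholine precursors, fell. The call was lost in 16 of 21 alternatives for Pcyt1a, 5 for Faf2 and 3 for Plin3. Ldaf1 and Spart, also on this list, were not among the gene symbols counted.

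Among other lipases and esterases, 4 of 22 rose and 0 fell, against 15.1% and 14.7% of all genes. The log2 fold changes had a median of 0.30. With sex by transcripts as a term, 8 rose, against 14.5% of all genes. The phospholipase Pla1a averaged 84.0 ± 13.3 CPM in flox/flox mice and 43.6 ± 8.21 CPM in wt/wt mice (SD, n = 3 each; adjusted p = 0.00637). The carboxylesterase Ces1g averaged 401 ± 66.8 CPM in flox/flox mice and 152 ± 55.9 CPM in wt/wt mice (adjusted p = 0.00818), a gene with near-identical copies and so uncertain. Pnpla6 (log2 fold change 0.76) and Aadac (0.57), both esterases of the endoplasmic reticulum, were the others, with calls lost in 5 and 4 of 21 alternatives. Of the enzymes that follow PNPLA2 in triacylglycerol breakdown, Lipe (-0.35, adjusted p = 0.199) and Mgll (-0.40, adjusted p = 0.343) were not called; these were chosen after their values were seen.

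Among regulators of extracellular lipases, 7 of 20 rose and 3 fell, against 15.1% and 14.7% of all genes. The median on the log2 scale was 0.49. The receptor gene Lrp1 (1.26), whose product takes up lipoprotein remnants, and the proprotein convertases Pcsk5 (1.28) and Pcsk6 (0.64), which can cleave endothelial and lipoprotein lipase, rose, the Pcsk5 call being lost in 4 of 21 alternatives. Gpihbp1, which holds lipoprotein lipase on capillary endothelium, was at 0.755, 1.03 and 1.53 CPM in flox/flox mice, 1.22 and 0.952 CPM in wt/flox mice, and 3.39, 3.72 and 4.24 CPM in wt/wt mice. It was lower in every flox/flox and wt/flox library than in any wt/wt library, 3.41-fold in flox/flox against wt/wt (adjusted p = 0.00481), and the endothelial marker sum given above moved with it; the part of that sum was not tested. Apoc1 (-0.98) and Apoc2 (-0.60), apolipoproteins that inhibit and activate lipoprotein lipase, fell, and the Apoc2 call was lost in 7 of 21 alternatives.

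Among genes of triacylglycerol synthesis and VLDL assembly, 7 of 22 rose and 1 fell, against 15.1% and 14.7% of all genes. The median on the log2 scale was 0.55. Apob, the structural protein of VLDL, averaged 28203 ± 4919 CPM in flox/flox mice and 10655 ± 312 CPM in wt/wt mice (SD, n = 3 each; adjusted p = 0.00273). Mttp (0.77), which loads lipid onto APOB, Dgat1 (0.61), which makes triacylglycerol, and the fatty acid transporter Slc27a5 (0.82) also rose. Fabp1, the fatty acid binding protein of hepatocytes, fell 4.29-fold, with 191 ± 41.8 CPM in flox/flox mice and 819 ± 146 CPM in wt/wt mice (adjusted p = 0.00126). Among transcriptional regulators of droplet genes, 1 of 18 rose and 2 fell, against the same 15.1% and 14.7%. The median on the log2 scale was 0.11. The insulin receptor gene Insr rose (1.18), while the nuclear receptor genes Nr1h3 (-0.57) and Ppard (-2.32) fell, with calls lost in 3 and 8 of 21 alternatives. Ppard had 4.25, 6.99 and 3.63 CPM in flox/flox mice and 5.67, 40.8 and 28.0 CPM in wt/wt mice. Its wt/wt replicate 1 thus lay within the flox/flox range. Of the other genes named from these lists for flox/flox against wt/wt, the call was lost in 2 alternatives for Apoc1 and Mttp and in 1 for Hsd17b13, Pcsk6, Rab18 and Vps13c.

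Without the 2 libraries of contradicted sex, the counts that rose and fell were 1 and 2 for droplet proteins, 2 and 1 for lipases and esterases, 2 and 1 for regulators of extracellular lipases, 3 and 1 for triacylglycerol synthesis and 1 and 1 for transcriptional regulators, with 2915 genes called in all. For wt/flox against wt/wt, 4, 4, 4, 7 and 1 genes rose in the same order of lists, against 6.58% of all genes, and the genes that fell were 1 regulator of extracellular lipases (Gpihbp1) and 1 gene of triacylglycerol synthesis (Fabp1), against 5.89%. With either wt/flox library left out, that comparison rests on a single wt/flox library. Between flox/flox and wt/flox, edgeR called 0 genes of any list and limma-voom called 0. DESeq2 called 1 (Ces2a, a carboxylesterase), where it called 0.51% of all genes. The genes with an unadjusted p under 0.05 in edgeR numbered 2 of 21, 4 of 22, 1 of 20, 6 of 22 and 0 of 18 in the same order of lists. Of all 14728 genes, 1240 did so, and Ldah was on both of the first lists.

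**Figure D5:**
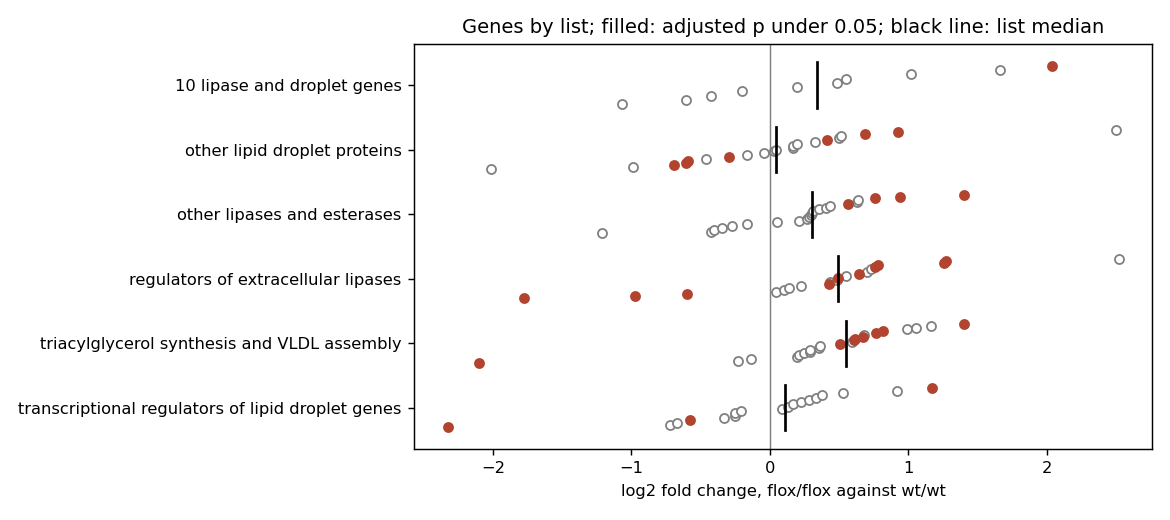
Log2 fold changes of the genes of each related list and of the 10 genes in flox/flox against wt/wt, with a point per gene and called genes filled. The list medians run from 0.04 for other droplet proteins to 0.55 for triacylglycerol synthesis and VLDL assembly, beside 0.02 over all genes.

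Fold changes against wt/wt varied with exon length. For flox/flox against wt/wt, the log2 fold changes had a median of -0.42 in genes of 1000 to under 2000 exon bases, 0.08 for those of 4000 to under 8000, which include Lipg (4715 bases), and 0.32 for those of 8000 or more, which include Lpl (10478 bases). In genes under 1000 bases, which include G0s2 (871 bases), the median was 0.25 in flox/flox against wt/wt and -0.13 in wt/flox against wt/wt. G0s2 lies near the upper edge of this class, and the class of 1000 to under 2000 bases had medians of -0.42 and -0.43. The trend removed was a smooth curve over length, so the class medians do not give the shift made at G0s2. With the trend removed, the log2 fold change of Lipg in flox/flox against wt/wt was 2.02 (adjusted p = 0.00958). That of G0s2 was -0.57 (adjusted p = 0.434) in place of -1.07, and -2.01 in place of -2.48 in wt/flox against wt/wt.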

How the data were processed

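The deposited values are raw counts of reads for each symbol, sense and antisense apart, per the file headers. GRCm38 (mm10) and DESeq2 are named in the submitters' processing notes, with aligner, counter and annotation not given in the sources used here. Libraries were strand-specific and depleted of ribosomal RNA, per the labels' protocols. The 5 rows that name no gene were left out. Reads in no gene were 34.5% to 40.0% of sense reads in flox/flox, 31.7% to 37.3% in wt/flox and 22.2% to 28.1% in wt/wt. Of the symbols, 96.6% matched GENCODE M21 (GRCm38), the source of coordinates and exon lengths.

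Sense counts were tested with the quasi-likelihood F test of edgeR 4.0.16 in R 4.3.3, two-sided, with TMM size factors, filterByExpr (14728 genes kept) and Benjamini-Hochberg adjustment at 0.05 over all genes kept. The fit held all 8 libraries and genotype as the only term, since 2 libraries contradict the labelled sex. All 3 samples of genotype flox/flox were used, although the design text of the series gives 2. Libraries of a group differed by more than sampling noise. Likeness used log2(CPM + 0.1) centred on each gene's mean. Promoters are those of RefSeq. The code was tested on simulated counts.

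The 10 genes and the lists were chosen with earlier results of these data known. The genes of the set are always named. Up to 4 called genes of smallest adjusted p are named per related list and direction in flox/flox against wt/wt, and the 2 genes of nearest pattern for each of the 10 called there; a gene that this rule names among the regulators is not reported here. Alternatives were DESeq2 1.42.0, limma-voom (limma 3.58.1), upper-quartile or RLE size factors, a filter at a mean CPM of at least 1 or none, sex by label or by transcripts as a term, the replicate number as a block, each library left out, a fit of only the 2 groups compared, the 2 libraries of contradicted sex left out, sense plus antisense counts, and a trend with exon length removed. The alternatives for the related lists and their named genes were added after seeing the data.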

Additional observations from a re-analysis of the deposited data

How the results depend on the processing

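Lipg in flox/flox against wt/wt kept its direction and its call under all 21 alternatives. There, 2 of the 10 genes were called with upper-quartile size factors (30.6% of all genes) or a mean CPM of at least 1 (40.5%). The count was also 2 with sense plus antisense counts (30.5%) or only the 2 groups compared (26.3%). It was 3 with DESeq2 (35.6%) or the exon length trend removed (22.7%), and 1 to 2 with a library left out (15.0% to 32.2%). DESeq2 called 1 in flox/flox against wt/flox, where it called 0.51% of all genes. For wt/flox against wt/wt, 2 were called with DESeq2 (22.3% of all genes) or only the 2 groups compared (16.5%). The count was 0 with the exon length trend removed (4.45%), and 0 to 2 with a library left out, where up to 17.2% of all genes were called. Replicate numbers go with age, but the correlations of same-numbered libraries across genes (0.29, 0.02 and 0.45 in flox/flox against wt/wt) did not all pass 0.1, and 3 of 6 libraries matched best with their own number. With the replicate block, 2 of the 10 genes were called in flox/flox against wt/wt, where 32.55% of all genes were. The log2 fold change with this block was -0.53 for Plin5 there and -0.17 in wt/flox against wt/wt. In flox/flox against wt/flox it was -0.45 for Cidec and 0.014 for Pnpla2. Other turns in direction were all of genes not called. For flox/flox against wt/wt these were -0.20 for Pnpla3, and -0.054 for Plin5, with sex by transcripts, -0.31 for Plin5 and -0.19 for Cidec with labelled sex, -0.40 and -0.12 with limma-voom, and -1.84 and -0.84 without the 2 libraries of contradicted sex. For flox/flox against wt/flox they were 0.11 for Pnpla2, -1.63 for Pnpla3 and 0.044 for Plin2 with sex by transcripts, 0.043 for Pnpla2 with upper-quartile size factors, 0.026 with a mean CPM of at least 1 and 0.019 with limma-voom. Cidec there was at -0.75 with limma-voom, -1.02 with labelled sex, -0.48 with sense plus antisense counts and -1.34 without the 2 libraries, where Lpl was at 0.30. For wt/flox against wt/wt they were -0.0052 for Pnpla3 with labelled sex, and -0.0019 for Plin5 and -0.15 for Cidec with sex by transcripts. With each library left out, flox/flox against wt/wt ran from -0.29 to 2.18 for Pnpla3, -1.37 to 0.66 for Plin5 and -1.12 to 1.02 for Cidec. Flox/flox against wt/flox ran from -0.43 to 0.57 for Pnpla2, -0.37 to 2.36 for Pnpla3, -1.89 to 0.84 for Plin5, -1.60 to 0.54 for Cidec and -1.61 to 0.93 for Lpl. Wt/flox against wt/wt ran from -0.77 to 0.23 for Pnpla2, -1.33 to 1.23 for Pnpla3, -0.38 to 0.024 for Plin2 and -0.64 to 1.17 for Plin5. The causes were not tested. Genes called over the whole table numbered 4400 in flox/flox against wt/wt, but 2195 and 2807 with replicate 2 or replicate 1 of wt/wt left out, and 2915 with both libraries of contradicted sex left out. Between flox/flox and wt/flox, edgeR called 0 genes, with 1240 at an unadjusted p under 0.05, while DESeq2 called 75 and limma-voom 0. In wt/flox against wt/wt the count was 1837, with 3284 by DESeq2, 655 with the length trend removed, and 0 to 1001 without a wt/flox or wt/wt library.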
